A study of Rattus norvegicus with 24 samples.

Results

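The genes that copy DNA and the genes that carry a cell through mitosis were followed in cultured rat hepatocytes, the main cell type of the liver. A list of 42 such genes was matched to the array by gene symbol, taking probe sets that carry that 1 symbol and, where a gene had several, the one with the highest mean over all arrays. This gave 38 measured genes, 17 of 19 listed replication genes and 21 of 23 listed mitosis genes, among 14217 genes measured in all. Rrm2, Cdc6, Tpx2 and Ndc80 were not analysed here, Rrm2 because its 2 probe sets carry several symbols.

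The hepatocytes were isolated from rat liver, and the labels give no strain, sex or age. In the monolayer they sat on 1 layer of type I collagen gel, and in the sandwich a second layer of gel was laid over them a day after seeding. Both cultures shared the same medium, with fetal bovine serum, epidermal growth factor, insulin, glucagon, hydrocortisone and antibiotics, so every group had growth factors. RNA was taken at days 1, 2, 3 and 8 after the second gel was added, with 3 Affymetrix arrays for each of the 8 groups. The labels call the monolayer confluent and unstable and the sandwich stable, and the series asks how growth in the 2 cultures differs. No label says whether the 3 arrays of a group came from separate animals or wells, so the p-values measure only the spread between these samples, which may be technical.

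A cell that is to divide first loads the Mcm2 to Mcm7 helicase ring onto its DNA with the help of Cdt1, then fires it together with the GINS complex and copies the strands with primase, polymerases, the sliding clamp Pcna and its loader Rfc. It then enters mitosis, driven by the kinase Cdk1 with cyclins A and B, and leaves it when the anaphase-promoting complex destroys those cyclins. Hepatocytes in the adult liver rarely divide but can re-enter the cycle after injury. In textbook accounts, E2F factors act on promoters of replication genes, and the DREAM and MuvB complexes act on promoters of mitosis genes through a short CHR element that often lies near CCAAT boxes.

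The promoter letters are shown first because the motifs found differ between the replication and the mitosis list. RefSeq promoter windows of 300 bases, 250 before and 50 after the annotated start on the GRCr8 build, were found for 34 of the 38 genes. Mcm4, Ccna2, Ube2c and Aurkb had no entry. The search covered both strands for the CHR element (TTTGAA or TTTAAA), the CCAAT box (CCAAT) and an E2F-type element (TTTCCCGC, TTTGGCGC, TTTCGCGC or TTTGCCGC), and E2F-type matches can overlap each other and a CCAAT box. A CHR element lay in 18 of 18 mitosis promoters and in 2 of 16 replication promoters, beside 28.3% of the 33469 promoters in the table. An E2F-type element lay in 10 of 16 replication promoters and in 1 of 18 mitosis promoters, that of Cdk1, beside 2.14% of all promoters. CCAAT boxes were found in 13 of 18 mitosis and 9 of 16 replication promoters, beside 37.5% of all. Both a CHR element and a CCAAT box lay in 13 of 18 mitosis promoters, 1 of 16 replication promoters and 11.3% of all. These are matches of letters and do not show that a factor binds.

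The helicase genes Mcm2, Mcm6 and Mcm7 show the E2F-type letters of the replication list. The stretches end at the base before the annotated start and lie on the minus strand, at chr4:122918095-122918154, chr13:42404353-42404502 and chr12:22163179-22163278, written 5′ to 3′ along the gene. Capitals mark E2F-type matches (TTTCGCGC, TTTGGCGC or their reverse complements) and CCAAT boxes (CCAAT or ATTGG).
Mcm2: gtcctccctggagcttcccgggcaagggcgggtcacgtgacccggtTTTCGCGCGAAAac
Mcm6: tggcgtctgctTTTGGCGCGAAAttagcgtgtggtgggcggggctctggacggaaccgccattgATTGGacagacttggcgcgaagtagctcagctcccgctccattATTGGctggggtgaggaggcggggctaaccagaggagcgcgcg
Mcm7: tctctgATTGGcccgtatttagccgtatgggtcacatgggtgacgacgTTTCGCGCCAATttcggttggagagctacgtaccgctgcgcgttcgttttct

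The mitosis list is shown by the kinase Cdk1, cyclin B1 (Ccnb1), the spindle midzone protein Prc1 and the spindle motor Kif11. The Cdk1, Prc1 and Kif11 stretches lie on the plus strand at chr20:19265153-19265292, chr1:143659421-143659480 and chr1:244536797-244536866, and the Ccnb1 stretch on the minus strand at chr2:33655226-33655315. Capitals mark CHR elements, CCAAT boxes on either strand and, in Cdk1, 1 E2F-type match. Kif11 is included because its RNA passed the test in no comparison although its promoter holds the same pair of motifs as Prc1, whose RNA was lower in sandwich.
Cdk1: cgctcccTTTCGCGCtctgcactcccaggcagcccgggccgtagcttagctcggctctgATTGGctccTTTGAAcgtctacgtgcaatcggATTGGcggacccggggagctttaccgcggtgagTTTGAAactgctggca
Ccnb1: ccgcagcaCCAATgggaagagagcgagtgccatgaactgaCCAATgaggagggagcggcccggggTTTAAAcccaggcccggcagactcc
Prc1: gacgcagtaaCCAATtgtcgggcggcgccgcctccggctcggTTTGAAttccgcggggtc
Kif11: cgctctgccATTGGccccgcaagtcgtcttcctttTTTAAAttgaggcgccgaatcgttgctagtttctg

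**Figure D1:**
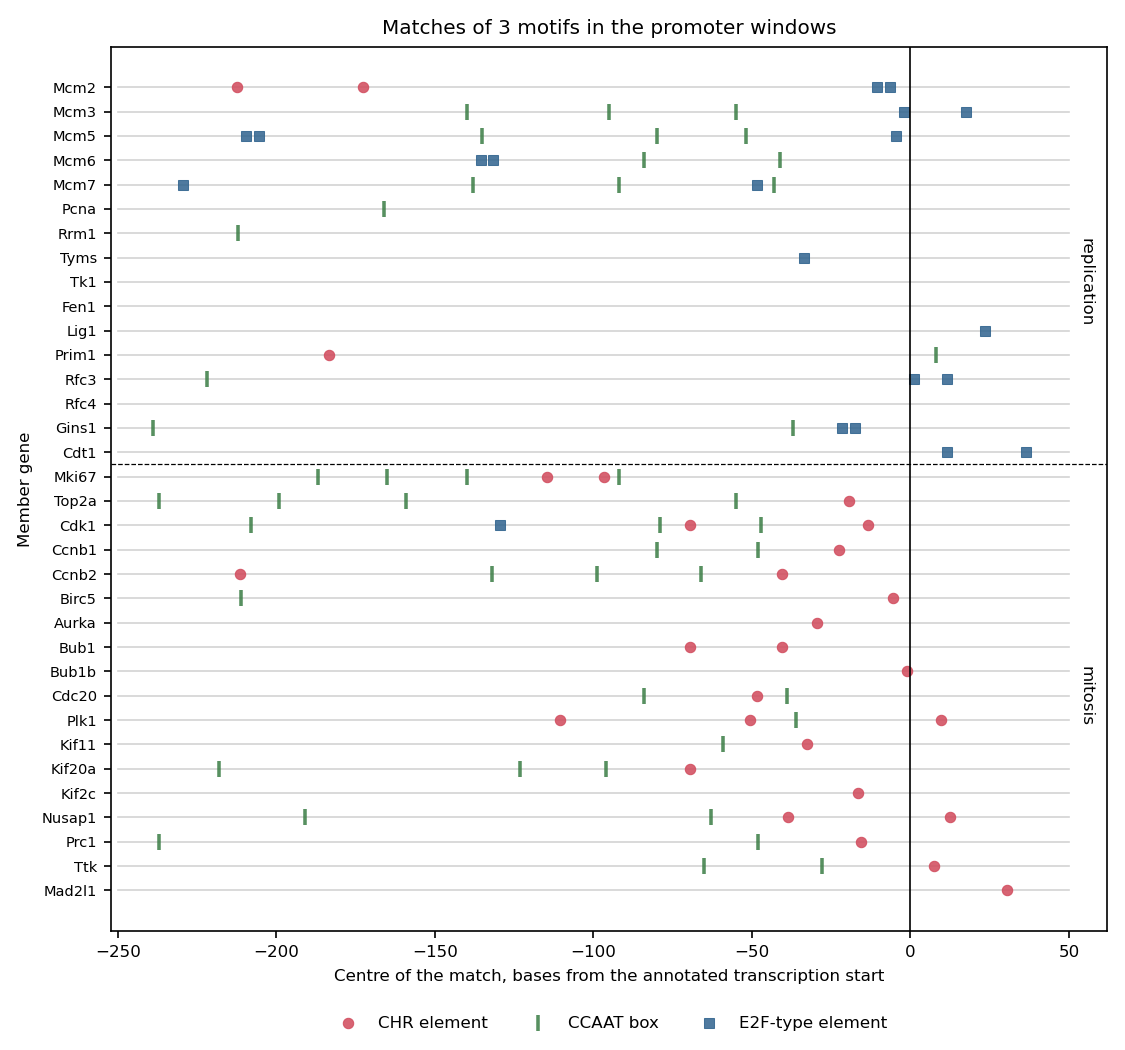
Positions of CHR elements, CCAAT boxes and E2F-type elements in the promoter windows of 34 genes; the x axis is the distance in bases of the centre of each match from the annotated start, and each grey line is 1 gene. All 18 mitosis promoters carry a CHR match, while E2F-type matches lie in 10 of the 16 replication promoters.

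Levels are the deposited log2 values, on which 1 unit is a doubling of signal. The median of all values on the arrays was 5.62. Of the replication genes 13 lay above this median in all 8 groups, 2 (Gins1 and Cdt1) lay below it in all, and Mcm4 and Mcm6 crossed it. Of the mitosis genes 7 lay above it in all groups, 9 below it in all and 5 crossed it. A fold change is given only where both group means exceed 5.62, because the background of a probe set is unknown and differences near it may be compressed. Group differences were tested with limma over 31042 probe sets, and a gene is called where the adjusted p (Benjamini-Hochberg over all of them, two-sided) is under 0.05. Differences are sandwich minus monolayer, or later minus earlier day, in log2 units with the standard error of the model.

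The calls of the 2 lists lay mostly in different cultures. In monolayer, 12 of the 21 mitosis genes rose and 1 fell between day 1 and day 8, beside 17.5% of all genes that rose and 21.2% that fell. In sandwich limma called none of them higher (3 at an unadjusted p under 0.05) and 2 lower, beside 14.3% and 17.5%. In sandwich, 11 of the 17 replication genes fell between day 1 and day 8, beside the same 17.5%. In monolayer 2 of them fell and 1 rose, smaller shares than those of all genes. By day 3 both lists held mostly genes that were lower in sandwich, 12 of 17 replication genes and 18 of 21 mitosis genes, beside 11.8% of all genes. In such bulk samples, fewer cells expressing a gene and less of its RNA per cell cannot be told apart. The median of the replication genes on each array, averaged over the 3 arrays, was 6.73 ± 0.09 (SD, n = 3) in monolayer at day 1 and 6.71 ± 0.10 at day 8, and in sandwich it was 6.56 ± 0.04 at day 1 and 6.14 ± 0.08 at day 8. The median of the mitosis genes was 5.38 ± 0.11 in monolayer at day 1, 5.74 ± 0.03 at day 3 and 5.66 ± 0.19 at day 8. In sandwich it was 5.19 ± 0.19, 5.28 ± 0.07 and 5.32 ± 0.13 at those days.

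**Figure D2:**
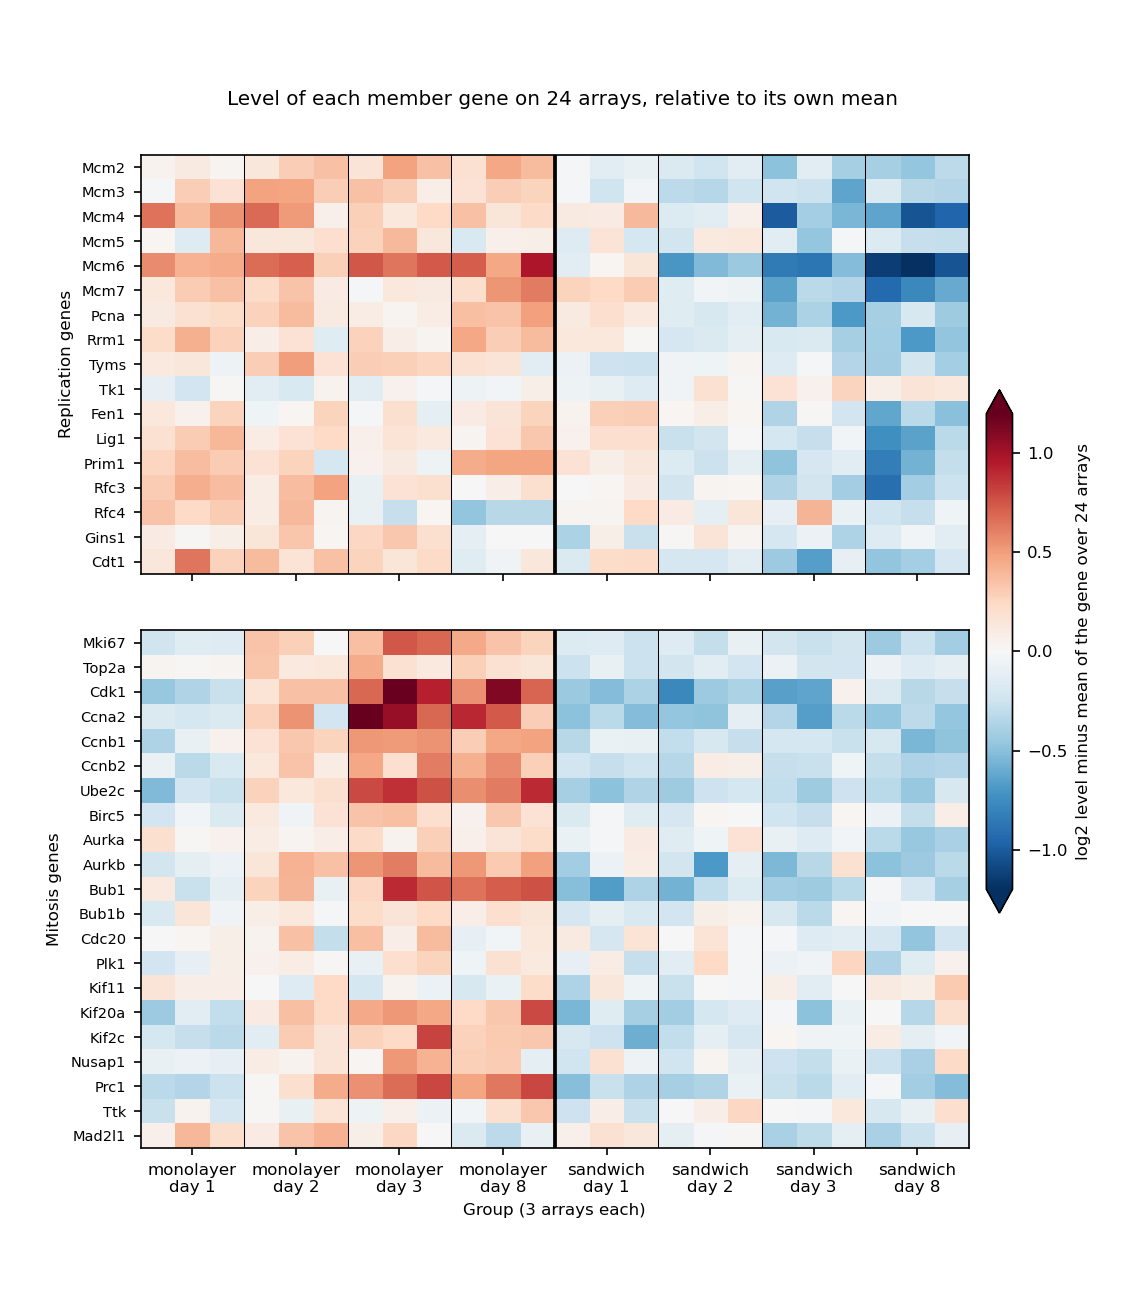
Level of each of the 38 genes (rows) on each of the 24 arrays (columns, grouped by culture and day), as the log2 level minus the mean of that gene over all arrays; red is above and blue below that mean. Tk1 aside, the replication rows are mostly blue at day 8 in sandwich, and many mitosis rows turn red by day 3 in monolayer.

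The helicase genes Mcm2 to Mcm7, which encode the 6 subunits of the ring that unwinds DNA, were lower in sandwich at day 3 for all 6 members. Differences at day 3 ran from -0.47 ± 0.14 for Mcm5 to -1.45 ± 0.13 for Mcm6. At day 8, 5 of the 6 were called lower, and Mcm5 was at -0.22 ± 0.14 (adjusted p = 0.257). None of the 6 was called at day 1.

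Mcm6 showed the largest gap of the replication list. Mcm6 in monolayer read 6.49, 6.34 and 6.37 at day 1, 6.60, 6.64 and 6.21 at day 2, 6.67, 6.57 and 6.66 at day 3, and 6.65, 6.39 and 6.90 at day 8. Mcm6 in sandwich read 5.79, 5.95 and 6.07 at day 1, 5.23, 5.40 and 5.48 at day 2, 5.08, 5.06 and 5.41 at day 3, and 4.80, 4.58 and 4.89 at day 8. Every sandwich array lay below every monolayer array of its day, and the gap was -1.11 ± 0.13 at day 2, -1.45 ± 0.13 at day 3 (adjusted p = 6.39e-09) and -1.89 ± 0.13 at day 8 (adjusted p = 2.49e-11). Within sandwich Mcm6 fell by 1.18 ± 0.13 from day 1 to day 8.

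Mcm4 had the next largest difference at day 3. Mcm4 in monolayer read 6.12, 5.85 and 6.01 at day 1, 6.15, 5.98 and 5.53 at day 2, 5.76, 5.60 and 5.71 at day 3, and 5.82, 5.62 and 5.70 at day 8. Mcm4 in sandwich read 5.58, 5.57 and 5.86 at day 1, 5.31, 5.34 and 5.53 at day 2, 4.47, 5.06 and 4.92 at day 3, and 4.84, 4.43 and 4.52 at day 8. The sandwich arrays of days 3 and 8 lay below all other Mcm4 values, with gaps to monolayer of -0.88 ± 0.15 at day 3 and -1.12 ± 0.15 at day 8. Its fall from day 1 to day 8 in sandwich was called, at -1.07 ± 0.15, while the change of -0.28 ± 0.15 in monolayer was not (adjusted p = 0.175).

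Mcm2 separated by moving in both cultures. Mcm2 in monolayer read 6.49, 6.55 and 6.48 at day 1, 6.58, 6.74 and 6.80 at day 2, 6.60, 6.93 and 6.80 at day 3, and 6.63, 6.91 and 6.82 at day 8. Mcm2 in sandwich read 6.42, 6.31 and 6.36 at day 1, 6.27, 6.21 and 6.31 at day 2, 5.95, 6.31 and 6.05 at day 3, and 6.05, 5.98 and 6.13 at day 8. All sandwich values lay below all monolayer values. Mcm2 was the 1 replication gene called as rising in monolayer (0.28 ± 0.10, adjusted p = 0.0313) and falling in sandwich (-0.31 ± 0.10, adjusted p = 0.0239) from day 1 to day 8. The monolayer call was lost in 6 of 32 alternatives (adjusted p up to 0.154), and the sandwich call in 4 of 32 (up to 0.0913). The Mcm2 level was 1.59-fold lower in sandwich at day 3 and 1.67-fold lower at day 8.

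Mcm3 was called on each day from day 2 on. Mcm3 in monolayer read 6.62, 6.93 and 6.80 at day 1, 7.11, 7.10 and 6.93 at day 2, 6.98, 6.93 and 6.71 at day 3, and 6.80, 6.93 and 6.90 at day 8. Mcm3 in sandwich read 6.61, 6.39 and 6.60 at day 1, 6.32, 6.29 and 6.39 at day 2, 6.39, 6.37 and 6.00 at day 3, and 6.46, 6.30 and 6.28 at day 8. The cultures overlapped by no array from day 1 on, and the gap was -0.72 ± 0.11 at day 2, -0.62 ± 0.11 at day 3 and -0.53 ± 0.11 at day 8.

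Mcm7 had nearly equal levels at day 1, with means of 8.45 in monolayer and 8.46 in sandwich. In sandwich it fell by 1.04 ± 0.11 to day 8, a 2.06-fold drop (adjusted p = 5.02e-08). In monolayer it stood at 8.64 at day 8, so the gap there was -1.22 ± 0.11, or 2.33-fold. Mcm5 passed the test only at day 3 and overlapped between the cultures at day 8.

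The genes that load or activate the helicase lay below the median of all values in every group. Cdt1, the loading factor, was lower in sandwich at day 2 (-0.48 ± 0.14) and day 3 (-0.61 ± 0.14) and missed the threshold at day 8 (-0.35 ± 0.14, adjusted p = 0.062). It fell in both cultures from day 1 to day 8, by 0.36 ± 0.14 in monolayer and by 0.46 ± 0.14 in sandwich. The monolayer call was lost in 15 of 31 alternatives, with an adjusted p of up to 0.31 (without monolayer day 1 replicate 2), and the sandwich call in 3. Gins1, a subunit of the GINS complex, was called only at day 3 (-0.47 ± 0.10).

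Pcna, the ring-shaped clamp that holds polymerases on DNA, was measured well above the median. Pcna in monolayer read 8.98, 9.05 and 9.09 at day 1, 9.15, 9.25 and 8.98 at day 2, 8.96, 8.90 and 8.96 at day 3, and 9.23, 9.21 and 9.36 at day 8. Pcna in sandwich read 8.98, 9.07 and 8.99 at day 1, 8.72, 8.68 and 8.74 at day 2, 8.30, 8.49 and 8.18 at day 3, and 8.47, 8.68 and 8.44 at day 8. The cultures interleaved at day 1, and from day 2 every sandwich array was below every monolayer array. Pcna was 1.53-fold lower in sandwich at day 3 (-0.62 ± 0.09, adjusted p = 1.21e-05) and 1.67-fold lower at day 8 (-0.74 ± 0.09).

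The strand-synthesis genes were called mainly at day 8. Fen1, the flap nuclease, and Lig1, the ligase that seals Okazaki fragments, were called at day 8 only, at -0.66 ± 0.11 and -0.74 ± 0.11. Prim1, the catalytic primase subunit, went from -0.30 ± 0.12 at day 3 (adjusted p = 0.106) to -1.03 ± 0.12 at day 8, a 2.04-fold gap. A second Lig1 probe set was called at day 3 as well (-0.44, adjusted p = 0.00464), and its gap was smaller at day 8 (-0.30, adjusted p = 0.0421). Of the clamp loader subunits, Rfc3 was lower at day 3 (-0.42 ± 0.13) and day 8 (-0.62 ± 0.13). Rfc4 was called in no comparison of the cultures and was the replication gene with the largest change in monolayer, falling by 0.68 ± 0.12 from day 1 to day 8 (1.60-fold).

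The genes that supply nucleotides did not share a pattern. Rrm1, the large subunit of ribonucleotide reductase, was lower in sandwich at day 3 (-0.39 ± 0.10) and more so at day 8 (-0.90 ± 0.10, 1.87-fold). Tyms, which makes thymidylate, was lower at days 2, 3 and 8, at -0.35 ± 0.10, -0.45 ± 0.10 and -0.41 ± 0.10. Tk1, the thymidine salvage kinase, was the member called against the direction of its list: it rose in sandwich from day 1 to day 3 by 0.27 ± 0.09 (adjusted p = 0.0462). That call was lost in 17 of 32 alternatives, and by another of its probe sets the rise was 0.04 (adjusted p = 0.918). Its 3 probe sets gave culture differences of 0.20, 0.21 and 0.28 at day 3, none of them called.

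Among the mitosis genes the driving kinase and its cyclins held some of the largest differences. Cdk1 in monolayer read 5.77, 5.87 and 5.96 at day 1, 6.39, 6.58 and 6.58 at day 2, 6.92, 7.41 and 7.16 at day 3, and 6.78, 7.34 and 6.93 at day 8. Cdk1 in sandwich read 5.78, 5.71 and 5.85 at day 1, 5.45, 5.79 and 5.85 at day 2, 5.58, 5.59 and 6.28 at day 3, and 6.05, 5.89 and 5.95 at day 8. Monolayer Cdk1 rose by 1.30 ± 0.16 from day 1 to day 3 (2.46-fold, adjusted p = 1.27e-06), while the sandwich mean changed by 0.03 ± 0.16. At day 3 the sandwich level was 2.55-fold lower (-1.35 ± 0.16), with 1 sandwich array, replicate 3 at 6.28, above the other two. At day 8 it was 2.07-fold lower.

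Ccna2, cyclin A2, lay below the median in every group. Ccna2 in monolayer read 3.62, 3.58 and 3.62 at day 1, 4.07, 4.33 and 3.56 at day 2, 5.07, 4.84 and 4.48 at day 3, and 4.70, 4.53 and 4.09 at day 8. Ccna2 in sandwich read 3.30, 3.47 and 3.27 at day 1, 3.33, 3.31 and 3.68 at day 2, 3.44, 3.13 and 3.47 at day 3, and 3.33, 3.48 and 3.33 at day 8. Monolayer replicates of Ccna2 spread widely at day 2, and 1 of them lay below the highest sandwich array. The gap was -1.45 ± 0.17 at day 3 (adjusted p = 4.49e-07) and -1.06 ± 0.17 at day 8, with no overlap on either day.

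Ccnb1, cyclin B1, separated from day 2 on. Ccnb1 in monolayer read 4.77, 5.05 and 5.19 at day 1, 5.31, 5.46 and 5.40 at day 2, 5.66, 5.65 and 5.68 at day 3, and 5.43, 5.60 and 5.62 at day 8. Ccnb1 in sandwich read 4.80, 5.06 and 5.05 at day 1, 4.84, 4.94 and 4.86 at day 2, 4.93, 4.93 and 4.87 at day 3, and 4.94, 4.59 and 4.65 at day 8. The cultures overlapped at day 1 and at no later day, with gaps of -0.51 ± 0.10, -0.75 ± 0.10 and -0.82 ± 0.10 at days 2, 3 and 8. A second Ccnb1 probe set was not called at day 2 (-0.35, adjusted p = 0.161) and was called at days 3 and 8 (-0.79 and -0.61). Ccnb2, the second B-type cyclin, was at -0.62 ± 0.12 at day 3 and -0.76 ± 0.12 at day 8.

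**Figure D3:**
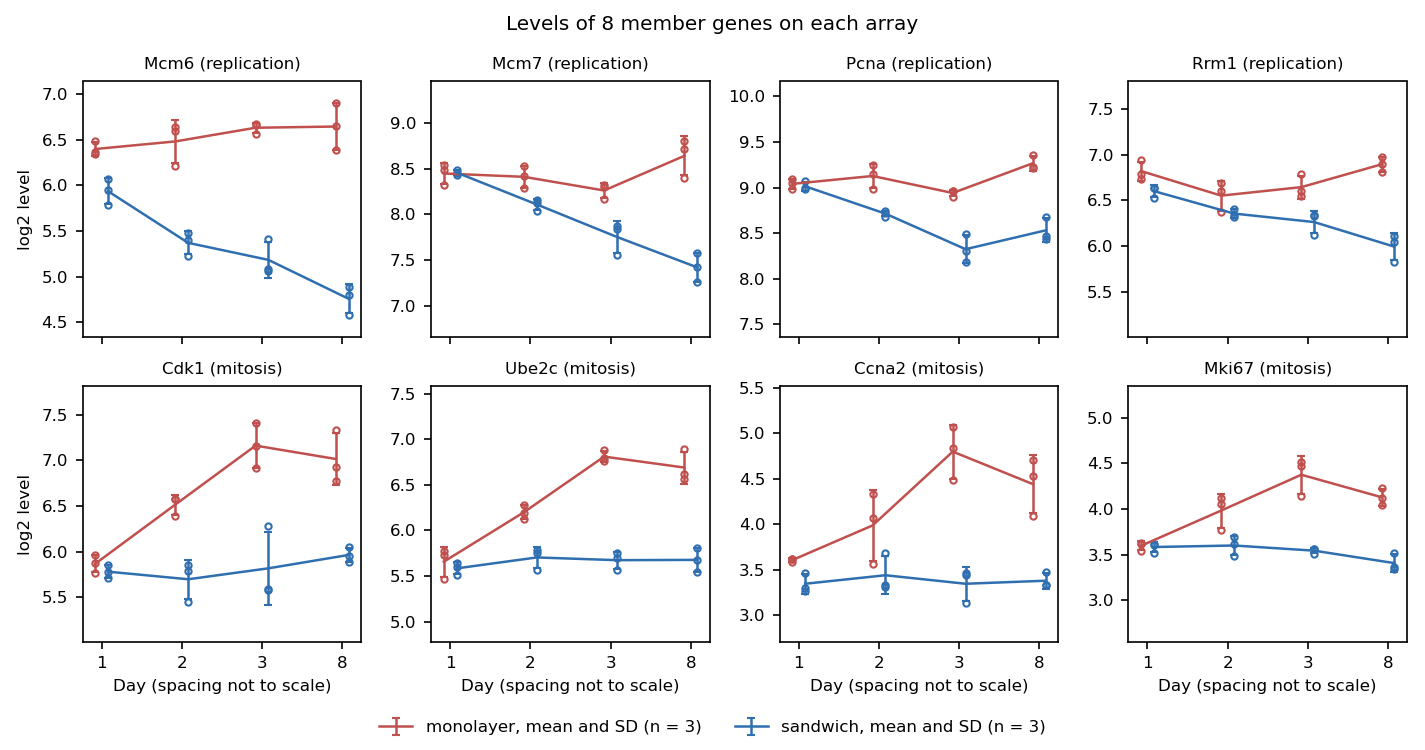
Log2 level of 4 replication genes (top) and 4 mitosis genes (bottom) by day of culture, with each array as a circle and the mean and SD of 3 arrays as line and bar; every panel spans the same height in log2 units, and the spacing of days is not to scale. In sandwich Mcm6, Mcm7, Pcna and Rrm1 fell from day 1 to day 8, and in monolayer Cdk1, Ube2c, Ccna2 and Mki67 rose from day 1 to day 3.

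Ube2c, the ubiquitin-conjugating enzyme of the anaphase-promoting complex, separated from day 2 on as well. Ube2c in monolayer read 5.47, 5.77 and 5.73 at day 1, 6.28, 6.13 and 6.19 at day 2, 6.79, 6.88 and 6.76 at day 3, and 6.56, 6.62 and 6.89 at day 8. Ube2c in sandwich read 5.60, 5.51 and 5.64 at day 1, 5.57, 5.75 and 5.79 at day 2, 5.70, 5.57 and 5.75 at day 3, and 5.68, 5.54 and 5.81 at day 8. All 9 monolayer arrays from day 2 on exceeded all 12 sandwich arrays. The level was 2.20-fold lower in sandwich at day 3 (-1.14 ± 0.10, adjusted p = 4.76e-09) and 2.01-fold lower at day 8. Cdc20, an activator of the same complex, was called at day 3 (-0.38 ± 0.13, adjusted p = 0.0434), a call lost in 11 of 32 alternatives (adjusted p up to 0.171). Of its dimmer probe sets, 1 was called at day 3 (-0.41, adjusted p = 0.0161), and the others were not, at -0.08, -0.18 and 0. At day 8 the probe set used was not called. Of the dimmer ones 2 were, at -0.42 and -0.29, and the others were not, at -0.05 and 0.02. By the probe set used, the sandwich change of Cdc20 from day 1 to day 8 was -0.32 ± 0.13 (adjusted p = 0.072).

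The spindle checkpoint genes did not share a pattern. Bub1 in monolayer read 4.92, 4.54 and 4.70 at day 1, 5.07, 5.21 and 4.72 at day 2, 5.05, 5.70 and 5.56 at day 3, and 5.46, 5.53 and 5.57 at day 8. Bub1 in sandwich read 4.29, 4.13 and 4.43 at day 1, 4.24, 4.51 and 4.64 at day 2, 4.39, 4.38 and 4.48 at day 3, and 4.78, 4.60 and 4.41 at day 8. No sandwich array of Bub1 reached a monolayer array of its day, day 1 included, where the difference did not pass the test. Bub1 was at -1.02 ± 0.15 at day 3 and -0.93 ± 0.15 at day 8, and Bub1b was called only at day 3 (-0.37 ± 0.10). Mad2l1 was the mitosis gene called as falling in both cultures from day 1 to day 8, by 0.42 ± 0.11 in monolayer and by 0.37 ± 0.11 in sandwich. The monolayer call was lost with another of its probe sets (adjusted p = 0.256), and the sandwich call without sandwich day 8 replicate 1 (adjusted p = 0.0656). The Mad2l1 probe sets disagreed on the culture difference too: the one used gave -0.38 at day 3 and -0.05 at day 8, and another gave -0.80 and -0.76.

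Mki67, which encodes the proliferation marker Ki-67, lay below the median in every group. Mki67 in monolayer read 3.54, 3.63 and 3.62 at day 1, 4.12, 4.06 and 3.77 at day 2, 4.14, 4.52 and 4.47 at day 3, and 4.23, 4.12 and 4.04 at day 8. Mki67 in sandwich read 3.61, 3.62 and 3.52 at day 1, 3.62, 3.49 and 3.69 at day 2, 3.56, 3.51 and 3.56 at day 3, and 3.34, 3.52 and 3.36 at day 8. The cultures were at one level at day 1 (means 3.60 and 3.59) and did not overlap afterwards, with -0.83 ± 0.10 at day 3 and -0.72 ± 0.10 at day 8. Top2a, the topoisomerase that untangles sister chromosomes, was also below the median in every group. Top2a in monolayer read 4.70, 4.68 and 4.70 at day 1, 5.0, 4.78 and 4.79 at day 2, 5.11, 4.85 and 4.78 at day 3, and 4.95, 4.85 and 4.81 at day 8. Top2a in sandwich read 4.41, 4.58 and 4.41 at day 1, 4.45, 4.53 and 4.44 at day 2, 4.60, 4.45 and 4.44 at day 3, and 4.60, 4.51 and 4.56 at day 8. Sandwich Top2a lay below monolayer on every array at every day, was called at days 2, 3 and 8 (-0.38, -0.42 and -0.31, each ± 0.09), and changed with time in neither culture beyond the threshold. A second Top2a probe set, with a lower mean, was not called on these days.

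Aurkb, the Aurora kinase of the chromosomal passenger complex, was at -0.73 ± 0.15 at day 3 and -0.86 ± 0.15 at day 8. Aurka, the Aurora kinase of the spindle poles, was at -0.28 ± 0.09 and -0.54 ± 0.09, and it was 1 of the 2 mitosis genes that fell in sandwich from day 1 to day 8 (-0.39 ± 0.09, adjusted p = 0.00157). Birc5 (survivin) in monolayer read 5.58, 5.78 and 5.64 at day 1, 5.93, 5.77 and 5.99 at day 2, 6.15, 6.17 and 6.01 at day 3, and 5.86, 6.14 and 5.99 at day 8. Birc5 in sandwich read 5.64, 5.79 and 5.67 at day 1, 5.61, 5.84 and 5.82 at day 2, 5.57, 5.54 and 5.84 at day 3, and 5.74, 5.53 and 5.89 at day 8. Birc5 overlapped between the cultures on days 1, 2 and 8 and was called at day 3 only, 1.38-fold lower in sandwich.

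Of the spindle proteins, Prc1 rose in monolayer by 0.99 ± 0.13 from day 1 to day 3 (1.98-fold) and was 1.89-fold lower in sandwich at day 3 and 1.94-fold lower at day 8. The motors Kif20a and Kif2c were lower at day 3, at -0.68 ± 0.15 and -0.47 ± 0.13, and Kif20a also at day 8. The Kif2c call at day 3 was lost in 2 of 31 alternatives (adjusted p up to 0.146). So was the Kif20a call at day 8, in 2 of 31 (up to 0.12). A second Kif2c probe set, with a lower mean, was not called at day 3 (0) or day 8 (0.08). Nusap1, a microtubule bundler, was called at day 3 (-0.52 ± 0.15), and a second probe set at day 3 (-0.52) and day 8 (-0.48, adjusted p = 0.00238). Plk1, Kif11 and Ttk were called in no comparison, with culture differences at day 3 of -0.08 ± 0.13, 0.06 ± 0.13 and 0.06 ± 0.12. A second Ttk probe set, with a lower mean, was called at day 3 (-0.43, adjusted p = 0.0216) and day 8 (-0.48). The promoters of Plk1, Kif11 and Ttk all held a CHR element.

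Counted over the lists, no member was called between the cultures at day 1 by limma, although 7 of 17 replication genes and 2 of 21 mitosis genes had an unadjusted p under 0.05, all lower in sandwich. Over all genes 1.75% were called lower and 0.823% higher at day 1 at the adjusted threshold. The share of all genes at an unadjusted p under 0.05 was not counted, so the unadjusted counts have no share to stand beside. At day 2, 7 of 17 replication genes and 9 of 21 mitosis genes were lower and none higher, beside 5.85% of all genes lower and 2.83% higher. The day 2 counts changed when single arrays were left out. The replication count was 4 without sandwich day 2 replicate 1 or without replicate 2 of that group. The mitosis count was 4 without sandwich day 2 replicate 2 and 5 without its replicate 1 or without monolayer day 2 replicate 2, and it was also 5 when the fit used only the groups compared.

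At day 3, 12 of 17 replication genes and 18 of 21 mitosis genes were lower and none higher, beside 11.8% of all genes lower and 10.9% higher. At day 8 the counts were 12 of 17 and 12 of 21, beside 20.7% lower and 15.6% higher. The median difference of the replication genes was -0.19, -0.33, -0.47 and -0.66 at days 1, 2, 3 and 8, and that of the mitosis genes -0.07, -0.32, -0.52 and -0.50. The median of all genes was within 0.01 of 0 on each day. Arrays did not overlap, with sandwich lower, for 14 of 17 replication and 18 of 21 mitosis genes at day 3, beside 18.5% of all genes, and for 13 and 15 at day 8, beside 24.8%.

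When only probe sets above the median brightness were tested, 14 replication and 9 mitosis genes remained in the test, and 8 of those 9 mitosis genes were called lower at day 3 and 5 at day 8. The shares of all genes given in this text come from the test without that filter, so they cannot be set beside these counts. Mcm6 stayed in the test although its sandwich means at days 2, 3 and 8 (5.37, 5.18 and 4.76) lay below 5.62. A gene can thus pass the filter through its monolayer arrays, and these counts add no support to the calls.

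**Figure D4:**
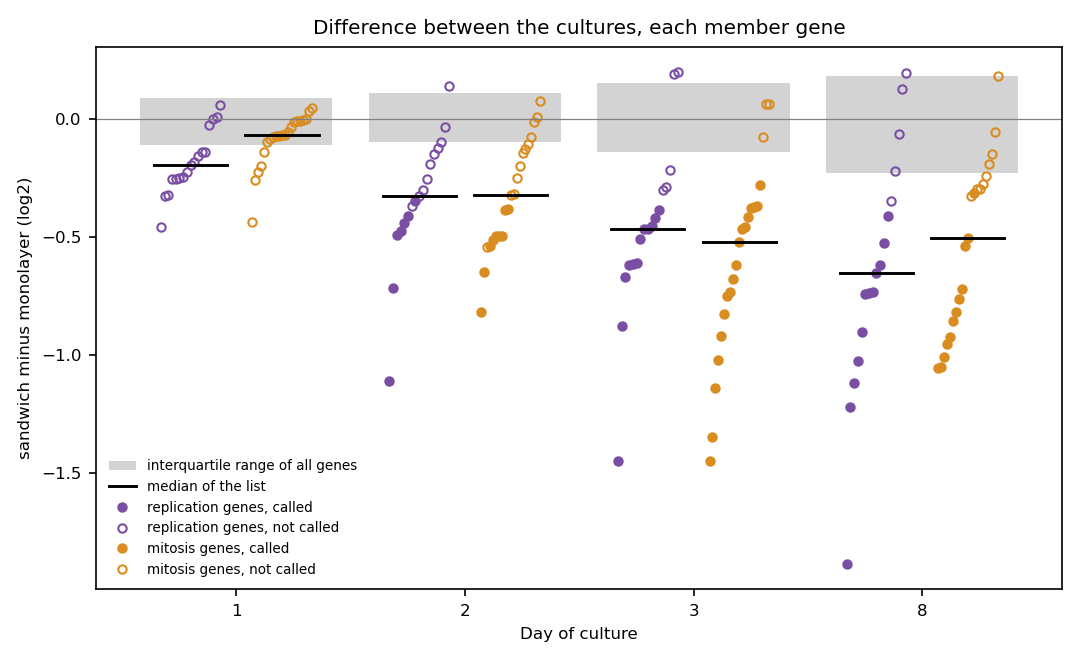
Sandwich minus monolayer in log2 units (y axis) for each replication gene (purple) and mitosis gene (orange) at each day of culture (x axis); filled points were called, black bars are list medians, and grey boxes span the interquartile range of all genes. The list medians leave the grey boxes at every day except for the mitosis genes at day 1.

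The time courses within each culture use separate arrays. In monolayer from day 1, the mitosis genes called higher were 6, 12 and 12 of 21 at days 2, 3 and 8, beside 3.56%, 11.1% and 17.5% of all genes called higher and 3.42%, 15.1% and 21.2% called lower. The day 2 count was 2 without replicate 1 or replicate 2 of monolayer day 1 or without monolayer day 2 replicate 2, 3 without monolayer day 2 replicate 3, and 10 with array weights. Monolayer mitosis genes peaked at day 3 in 16 of 21 cases and were lowest at day 1 in 17 of 21, where 19.1% of all genes peaked at day 3 and 33% were lowest at day 1. Between day 3 and day 8 limma called no mitosis gene in monolayer, beside 8.38% of all genes called lower and 8.66% called higher. At an unadjusted p under 0.05, for which no share of all genes was counted, 4 mitosis genes were lower and none higher. Replication genes in monolayer gave no call by limma at day 2 (2 higher and 1 lower at an unadjusted p under 0.05), 1 at day 3 (Rfc4, lower) and 3 at day 8 (Mcm2 higher, Rfc4 and Cdt1 lower). Without monolayer day 1 replicate 3 the day 8 count was 1. Mcm7, Pcna and Prim1 were higher in monolayer at day 8 than at day 3, beside 8.66% of all genes, a count that went to 1 without monolayer day 8 replicate 2 and to 0 without replicate 3 of that group.

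In sandwich from day 1, the replication genes called lower were 1, 9 and 11 of 17 at days 2, 3 and 8, beside 3.97%, 9.62% and 17.5% of all genes called lower and 4.17%, 10.2% and 14.3% called higher. With replicate number as a block the day 2 count was 4. Tk1 was the 1 gene called higher, at day 3. The 10 calls at day 3, Tk1 included, dropped to 5 without replicate 2 or replicate 3 of sandwich day 1 and to 6 without sandwich day 3 replicate 1. Replication genes in sandwich were highest at day 1 in 13 of 17 cases and lowest at day 8 in 12, where 30.7% of all genes were highest at day 1 and 36% lowest at day 8. Mcm6, Mcm7 and Lig1 fell further between day 3 and day 8, beside 8.1% of all genes, which was called for none of them without replicate 1 or replicate 2 of sandwich day 8 and for 1 without sandwich day 3 replicate 3. Mitosis genes in sandwich gave no call by limma at day 2 (1 higher and none lower at an unadjusted p under 0.05), 1 at day 3 (Mad2l1, lower) and 2 at day 8 (Aurka and Mad2l1, lower). At an unadjusted p under 0.05, 3 were higher and 4 lower at day 8. Without sandwich day 1 replicate 2 the day 8 count was 4, and the day 3 count was 0 without sandwich day 3 replicate 1 and 2 without monolayer day 3 replicate 3.

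Setting both time courses side by side from day 1 to day 8, 9 replication genes fell in sandwich with no call in monolayer, and Rfc4 fell in monolayer alone. Mcm2 rose in monolayer and fell in sandwich (calls lost in 6 and 4 of 32 alternatives). Cdt1 fell in both (the monolayer call being lost in 15 of 31 alternatives). The remaining 5 had no call. For mitosis, 12 genes rose in monolayer with no call in sandwich, Aurka fell in sandwich with no call in monolayer, and 7 had no call. Mad2l1 fell in both, the monolayer call being lost with another of its probe sets. A call in 1 culture beside none in the other is not a test of their difference, and the share of all genes with each pattern was not counted. Of the 12 mitosis genes, Bub1, Kif20a and Kif2c also rose in sandwich at an unadjusted p under 0.05 by limma, and Ccnb1 fell there. The direct test of the gap from day 1 to day 8 did not call Bub1, Kif20a, Kif2c or Birc5, nor Rfc3 of the 9 replication genes.

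**Figure D5:**
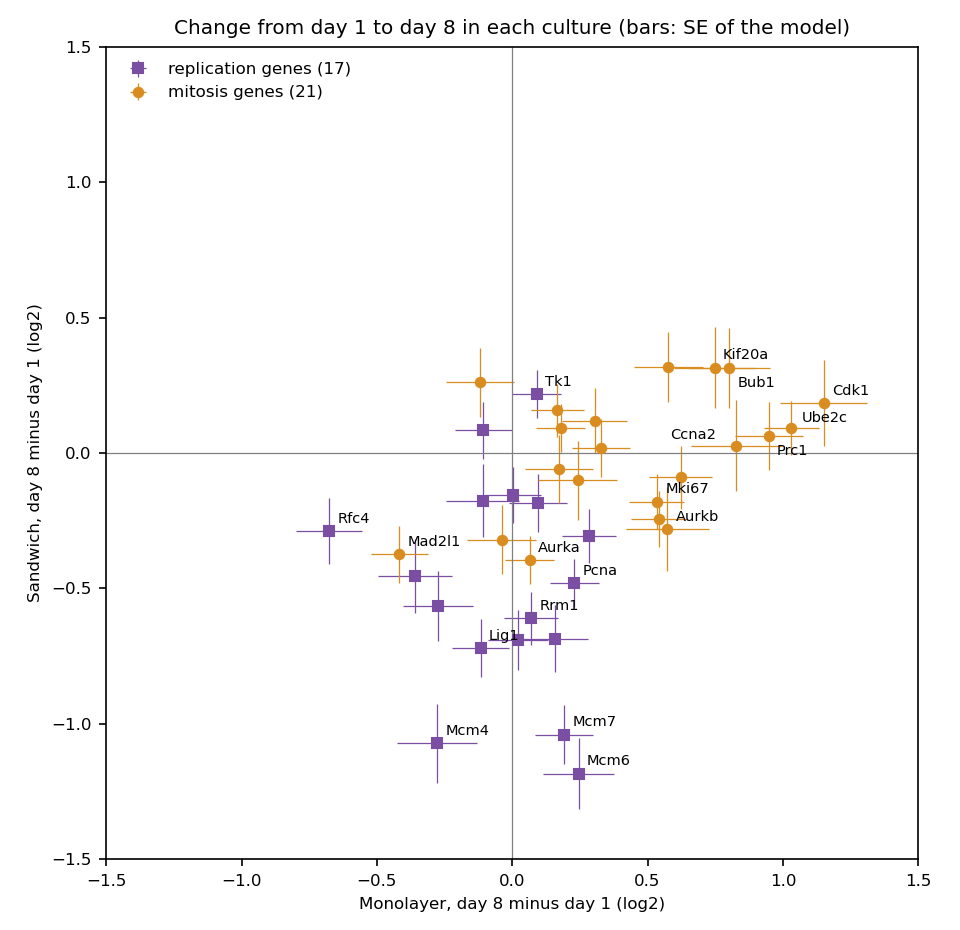
Change from day 1 to day 8 in log2 units in monolayer (x axis) and sandwich (y axis) for 17 replication genes (purple squares) and 21 mitosis genes (orange circles), with standard errors of the model. Replication genes spread downward along the sandwich axis, to -1.18 for Mcm6, and mitosis genes spread to the right along the monolayer axis, to 1.15 for Cdk1.

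Whether the gap between the cultures itself changed was tested directly. From day 1 to day 3 it turned lower for 4 replication genes (Mcm2, Mcm6, Mcm7 and Pcna) and 9 mitosis genes, beside 4.42% of all genes. Of those 9 mitosis calls, 6 were kept in every alternative that tested them. The replication count was 2 without monolayer day 3 replicate 2, sandwich day 1 replicate 1 or sandwich day 3 replicate 1. From day 3 to day 8 it turned lower for 3 replication genes (Mcm7, Rrm1 and Prim1) and for no mitosis gene, beside 4.23% of all genes, and no mitosis gene was lower at an unadjusted p under 0.05 either. Over the whole span from day 1 to day 8, a comparison added after values were seen, 9 genes of each list turned lower, beside 10.5% of all genes. Mcm6 had the largest change of the replication list, at -1.43 ± 0.18, and Cdk1 of the mitosis list, at -0.97 ± 0.23. An F test of the culture-by-day interaction called 9 of 17 replication genes and 9 of 21 mitosis genes, beside 21.2% of all genes.

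Further genes of the same pathways, 42 replication and 62 mitosis genes on the array, were counted the same way. At day 3, 6 other replication genes were lower and 2 higher in sandwich. Those 14.3% lower and 4.76% higher stand beside 11.8% and 10.9% of all genes, so the lower share at day 3 was near that of all genes. At day 8, 14 were lower and 3 higher (33.3% and 7.14%), beside 20.7% and 15.6%. The median difference was -0.12 at day 3 and -0.15 at day 8. Gmnn, the geminin that holds Cdt1 in check, was at -0.55 ± 0.11 at day 3, and the polymerase alpha subunits Pola2 and Pola1 were at -0.44 ± 0.11 and -0.37 ± 0.11. Timeless, a fork protection factor, was at -0.53 ± 0.15. Rpa3 and Orc5 were the 2 that were higher, at 0.63 ± 0.19 and 0.31 ± 0.10.

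Of the other mitosis genes, 24 were lower and 2 higher in sandwich at day 3 (38.7% and 3.23%, beside the 11.8% and 10.9% of all genes), and 21 lower and 4 higher at day 8 (33.9% and 6.45%, beside 20.7% and 15.6%), with medians of -0.26 and -0.22. Stmn1, the microtubule-destabilizing stathmin, was 5.35-fold lower in sandwich at day 3 (-2.42 ± 0.11), and the cytokinesis exchange factor Ect2 was at -1.77 ± 0.16. The lamin gene Lmnb1 was 2.39-fold lower and the kinesin Kif22 1.73-fold lower. In monolayer 13 of these genes rose and 2 fell from day 1 to day 3, beside 11.1% and 15.1% of all genes. In sandwich 1 rose and 8 fell, and those 12.9% that fell were near the 9.62% of all genes.

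Among 29 cell cycle regulators, 6 were lower and 1 higher in sandwich at day 3 (20.7% and 3.45%, beside 11.8% and 10.9% of all genes) and 9 lower and 3 higher at day 8 (31% and 10.3%, beside 20.7% and 15.6%). Wee1, the kinase that restrains Cdk1, was 1.69-fold lower at day 3 (-0.76 ± 0.12), and the checkpoint kinase Chek1 was at -0.49 ± 0.13. Fzr1, the late activator of the anaphase-promoting complex, was at -0.40 ± 0.12. E2f1 was 1.30-fold lower (adjusted p = 0.0152), Mybl2 was 1.22-fold higher (adjusted p = 0.0292), and Foxm1 was not called (-0.17 ± 0.11, adjusted p = 0.355).

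The arrays carried hepatocyte RNA by their markers: Alb (albumin) was near the top of the scale in all groups, with 15.04 as its highest group mean, and all 12 hepatocyte markers lay above the median in 7 of the 8 groups. Between the cultures these markers differed in the opposite direction to the called replication and mitosis genes, none of which was called at day 1. Of the 12 markers 4, 6, 8 and 10 were higher in sandwich at days 1, 2, 3 and 8, beside 0.823%, 2.83%, 10.9% and 15.6% of all genes. Over time they went both ways. In monolayer 4 rose and 3 fell from day 1 to day 3, beside 11.1% and 15.1% of all genes. In sandwich 5 rose and 3 fell from day 1 to day 8, beside 14.3% and 17.5%. At day 3 the monolayer arrays had a marker mean of 11.55 to 11.60 and the sandwich arrays one of 12.33 to 12.44. At day 8 these were 10.74 to 11.20 and 12.34 to 12.45. Arrays of a group correlated at 0.993 to 0.997 over all probe sets.

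Markers of other liver cells were measured beside them. Of 6 bile duct markers, Cd24 was lower (-4.15 ± 0.21) and Epcam higher (0.41 ± 0.13) in sandwich at day 3, and Cd24, Krt19 and Krt7 were lower at day 8. These shares, 16.7% lower and 16.7% higher at day 3 and 50% lower at day 8, stand beside 11.8%, 10.9% and 20.7% of all genes. The mean of the list per array was 5.75 to 5.82 in monolayer against 5.11 to 5.17 in sandwich at day 3 and 7.47 to 7.56 against 5.52 to 5.81 at day 8. Krt19 and Krt7, the defining keratins, were below the median of 5.62 in both cultures at day 3. At day 8 they averaged 7.97 and 7.23 in monolayer, against 4.78 and 4.01 in sandwich. Of 14 stellate cell and fibroblast markers 1 was lower and 1 higher at day 3 (7.14% each, beside 11.8% and 10.9% of all genes). At day 8, 3 were lower (Reln, Col1a2 and Col3a1) and 1 higher. Those 21.4% lower were near the 20.7% of all genes, and the 7.14% higher stood beside 15.6%. The list means were 5.28 to 5.40 against 5.18 to 5.26 at day 3 and 5.71 to 5.82 against 5.55 to 5.84 at day 8. Of 12 macrophage markers 9 were higher in sandwich at day 3, beside 10.9% of all genes, with list means of 5.64 to 5.72 in monolayer and 6.16 to 6.25 in sandwich. At day 8, 1 (Ptprc) was higher and 1 (Cd68) lower, 8.33% each beside 15.6% and 20.7% of all genes. The list means there were 5.82 to 5.95 and 5.81 to 6. Of 12 endothelial markers 1, Clec14a (2.32 ± 0.24), was higher in sandwich at day 3 (8.33%, beside 10.9% of all genes), with list means of 4.59 to 4.73 against 4.75 to 4.94. At day 8 Clec14a (4.07 ± 0.24) and Kdr were higher and Ramp2 lower (16.7% and 8.33%, beside 15.6% and 20.7%). The list means were then 4.69 to 4.80 against 5.03 to 5.11. At day 3 limma called none of 11 lymphocyte markers (2 at an unadjusted p under 0.05), whose means were 4.77 to 4.81 against 4.74 to 4.90. The difference between the 3′ and 5′ probe sets of actin, a measure of RNA quality, was 0.81 ± 0.02 (SD, n = 3) in monolayer and 1.03 ± 0.11 in sandwich at day 3, and 0.84 ± 0.05 and 1.02 ± 0.16 at day 8. The part of other cell types or of RNA quality in the results was not tested.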

How the data were processed

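RNA of rat hepatocytes was hybridised to 24 Affymetrix arrays, 3 in each of 8 groups. The deposited values are log2 expression values per probe set (2.61 to 15.07). RMA and limma are named in the submitters' processing notes, with no version or role, and other steps are not given in the sources used here. After 57 control probe sets were left out, limma 3.58.1 in R 4.3.3 was fitted to 31042 probe sets with 1 mean per group over all 24 arrays (16 residual degrees of freedom). Of these, 20826 carry 1 gene symbol, 436 several and 9780 none, and 14217 genes were counted, each by its probe set with the highest mean. Arrays give no read depth, and 3 per group limit the precision. On simulated data for sandwich minus monolayer at day 3, over 31042 probe sets, 48 of 100 probe sets changed by 0.5 and 97 of 100 changed by 1 log2 unit were recovered. No other probe set was changed in the simulation, unlike in the data, so the share recovered in the data may differ.

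The members and lists were chosen with earlier results of these data known. Values on every array are given for the 4 members of each list with the largest called difference at day 3 and for Pcna, Mki67, Top2a, Ccnb1 and Birc5. Also named are the 3 members of each list with the largest change from day 1 to day 3 in monolayer or from day 1 to day 8 in sandwich, members without a call or called against their list, Mcm2 to Mcm7, and of each other pathway list the 4 genes with the smallest adjusted p at day 3 plus E2f1, Foxm1 and Mybl2. Other genes complete a count. No label pairs arrays by replicate number. Deviations of same-numbered arrays from their group means correlated above 0.1 in all 3 pairs for 4 of the 12 pairs of groups compared (the cultures at day 8, days 1 and 2 within each culture, and sandwich days 3 and 8) and not for the other 8. Alternatives were another normalization or centring, a brightness filter, array weights, another variance model, another probe set per gene, only the groups compared, a replicate block and each array left out. Promoter sequences are RefSeq's, on GRCr8.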

Additional observations from a re-analysis of the deposited data

Results flagged for a closer look

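The gap between sandwich and monolayer changed between days by the direct test of that change, in log2 units with the standard error of the model. From day 1 to day 3 the gap of the replication genes turned lower for Mcm2 by a change of -0.53 ± 0.14, Mcm6 by -0.99 ± 0.18, Mcm7 by -0.52 ± 0.15 and Pcna by -0.59 ± 0.13. Over the same days it turned lower among the mitosis genes for Cdk1 (-1.26 ± 0.23), Ccna2 (-1.19 ± 0.24), Ube2c (-1.07 ± 0.14), Prc1 (-0.85 ± 0.18), Mki67 (-0.82 ± 0.14), Aurkb (-0.73 ± 0.22), Ccnb1 (-0.72 ± 0.15), Ccnb2 (-0.57 ± 0.17) and Birc5 (-0.49 ± 0.15). From day 3 to day 8 it turned lower again for Mcm7 (-0.71 ± 0.15), and for Rrm1 (-0.52 ± 0.14) and Prim1 (-0.73 ± 0.17). The adjusted p of these changes by limma ran from 1.37e-05 for Ube2c to 0.0452 for Birc5. The call from day 1 to day 3 was lost for Birc5 in 14 of 32 alternatives, Aurkb in 12 of 31 and Ccnb2 in 11 of 31. It was lost for Mcm7 in 9 of 32 and for Mcm2 in 3 of 32. The Rrm1 call from day 3 to day 8 was lost in 9 of 32. The other calls were kept in every alternative that tested them. No outlier test was run on groups of 3 arrays.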

How the results depend on the processing

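No called value changed sign in any alternative run, and the cause of each change below was not tested. With the brightness filter, which leaves 9 mitosis genes in the test, their counts became 4, 8 and 5 for the culture difference at days 2, 3 and 8, 3, 5 and 5 for monolayer days 2, 3 and 8 against day 1, 1 for monolayer day 8 against day 3, 4 for the change of the gap from day 1 to day 3 or to day 8, and 4 for the interaction. With 14 replication genes left it gave 1 at day 1, 2 for monolayer day 3 and 4 for sandwich day 2, each against day 1. With the replicate block replication counts were 1 for the culture difference at day 1, 3 and 5 for monolayer days 3 and 8 and 4 for sandwich day 2 against day 1, and 5 for the change of the gap from day 3 to day 8, and 1 mitosis gene was called for monolayer day 8 against day 3. The block moved no other count by over 1.5 times. Array weights gave replication counts of 1 for the culture difference at day 1, 1, 4 and 5 for monolayer days 2, 3 and 8 and 3 for sandwich day 2 against day 1, and 1 for sandwich day 8 against day 3, and mitosis counts of 10 for monolayer day 2, 2 for monolayer day 8 against day 3 and 0 for sandwich day 8 against day 3. Fits on only the groups compared gave 5 mitosis genes at day 2, 2 replication genes for monolayer day 3 and 2 for sandwich day 2 against day 1, and 0 of either list for sandwich day 8 against day 3. Trend and robust variance gave 3 replication genes for sandwich day 2 and 0 mitosis genes for sandwich day 8 against day 3. Quantile normalization gave 2 replication genes for sandwich day 2, and it and median centring gave 1 mitosis gene for monolayer day 8 against day 3.

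Leaving out each array in turn, replication counts ranged from 0 to 1 for the culture difference at day 1 (1 without monolayer day 2 replicate 3), 4 to 8 at day 2, 0 to 2 for monolayer day 3 and 1 to 4 for monolayer day 8 against day 1, 0 to 4 for monolayer day 8 against day 3, 1 to 2 for sandwich day 2 and 5 to 10 for sandwich day 3 against day 1, 0 to 4 for sandwich day 8 against day 3, and 2 to 4 for the change of the gap from day 1 to day 3. The count for monolayer day 3 was 0 without monolayer day 1 replicate 1 or monolayer day 3 replicate 2. Mitosis counts ranged from 4 to 10 for the culture difference at day 2, 2 to 7 for monolayer day 2 against day 1, 0 to 1 for monolayer day 8 against day 3, 0 to 2 for sandwich day 3 and 2 to 4 for sandwich day 8 against day 1, and 0 to 1 for sandwich day 8 against day 3. At day 3, 9 of 12 replication and 12 of 18 mitosis calls between the cultures were kept in every alternative that tested them, at day 8, 12 of 12 and 11 of 12, and at day 2, 4 of 7 and 2 of 9. Signal below the median limits what 9 of the 21 mitosis genes, which lay there in all groups, can show.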

Other observations

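Further genes of the other mitosis list were called at day 3, and those named here were chosen after their values were seen. The kinetochore gene Nuf2 was 1.48-fold lower in sandwich (-0.56 ± 0.11), Spc24 1.45-fold lower (-0.54 ± 0.11), and Zwint 1.32-fold lower (-0.40 ± 0.09), and Spc25 was at -0.63 ± 0.14. Smc2, a condensin subunit, was at -1.34 ± 0.25, and Plk4, the kinase of centriole duplication, at -0.68 ± 0.11. Cks1b, a Cdk-binding protein, and the centromere gene Cenpm were higher in sandwich, by 0.27 ± 0.09 and 0.46 ± 0.11.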
